A study of Mus musculus with 27 samples.

Results

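The genes of 3 signalling families, fibroblast growth factors (FGF), Notch and Eph-ephrin, were followed on 27 mouse MG_U74Av2 arrays. They were taken by symbol: FGF ligands and receptors, Sprouty, the Notch ligands, receptors, fringes, Rbpj, Hes and Hey, and the Eph receptors and ephrins. This gave 55 of the 8251 genes that at least 1 probe set of the array named alone, 22 for FGF, 16 for Notch and 17 for Eph-ephrin. The 55 genes had 69 probe sets, and for each gene the probe set with the highest mean over the 27 arrays was used.

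The arrays held total RNA from murine neural crest explants, made by splitting the dorsal neural tube of each embryo at the midline. One side was exposed to 1e-06 M retinoic acid (RA) dissolved in ethanol, and the other side served as control. There were 3 RA and 3 control arrays for 6 h and as many for 12 h. For 24 h there were 4 of each and for 48 h 3 RA and 4 control arrays, which makes 13 RA and 14 control arrays in all. Explants for 6 h were grown overnight on fibronectin in medium with horse serum before RA was added, so that 6 h of RA was not 6 h of culture. Strain, embryo age, and whether controls received ethanol were not given in the sources used here. Neither was it stated that the arrays of a group came from separate cultures, so the p-values measure only the spread between these arrays, which may be technical.

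The explants were mixed tissue. Of 10 measured neural crest markers, 8 lay above the 25th percentile of the array in every group, among them Snai2, Twist1, Erbb3, Ets1 and Sox10, while Foxd3 and Ednrb lay below it. Markers of neural tube, neurons and surface ectoderm were measured beside them, and not all were high. Of 6 surface ectoderm markers Krt8 had group means of 10.4 to 11.8 log2 and Krt18 of 9.05 to 10.9. Krt14 had 5.08 to 5.21 and Epcam 3.97 to 5.25. In every group 1 neural tube marker and 4 neuron markers lay below the 25th percentile. In such a mixture, fewer cells of a type and less RNA per cell cannot be told apart. The array titled 48 h control 3 is called RA treated in its description. It was kept as a control, and calls that end or begin when it is moved to RA are given beside the result.

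FGF ligands bind receptor tyrosine kinases (Fgfr1 to Fgfr4) that signal through Ras and MAP kinase, and Sprouty proteins limit that signal. Notch receptors are cleaved when a neighbouring cell presents Delta or Jagged, and the freed part joins the DNA-binding protein Rbpj to switch on Hes and Hey repressors, which hold progenitors back from becoming neurons. Ephrins and Eph receptors signal in both directions between touching cells, and they are known for steering neural crest cells into their migration streams.

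Expression is given as log2 of the deposited intensity. Probe sets differ in how brightly they bind, so a level is compared between arrays, and not between genes as an amount of transcript. An adjusted p is from limma's moderated test with Benjamini-Hochberg adjustment over all 12422 probe sets, and a difference passed when it was below 0.05.

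Promoters were searched for letters that Rbpj is known to bind, and a match does not show binding. Of the 55 genes 43 have an entry in the RefSeq promoter table (mouse GRCm38.p6). Its windows run from 250 bases before to 50 bases after each start. The letters GTGGGAA, the core that Rbpj is known to bind, stood on either strand of 6.38% of 32851 promoters. They stood in 5 of the 56 promoters of the 43 genes, which belong to 4 genes, Epha7, Fgf12, Hes5 and Lfng. Of these Hes5 held 2 copies, as did 0.256% of all promoters. Hes5 and Lfng are printed because both are known Notch targets. Capitals mark the core, which is written as its opposite-strand letters TTCCCAC at its first place in Hes5. The copies in Hes5 end 220 and 77 bases before the start and the copy in Lfng ends 103 bases before it.
Hes5 promoter, chr4:154960673-154960972, plus strand: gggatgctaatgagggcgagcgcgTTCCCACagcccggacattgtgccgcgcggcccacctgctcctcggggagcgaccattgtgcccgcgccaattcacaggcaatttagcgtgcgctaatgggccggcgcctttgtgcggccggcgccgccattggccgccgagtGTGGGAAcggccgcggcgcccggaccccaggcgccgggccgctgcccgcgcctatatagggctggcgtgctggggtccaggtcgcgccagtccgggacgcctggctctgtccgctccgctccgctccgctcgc
Lfng promoter, chr5:140607091-140607390, plus strand: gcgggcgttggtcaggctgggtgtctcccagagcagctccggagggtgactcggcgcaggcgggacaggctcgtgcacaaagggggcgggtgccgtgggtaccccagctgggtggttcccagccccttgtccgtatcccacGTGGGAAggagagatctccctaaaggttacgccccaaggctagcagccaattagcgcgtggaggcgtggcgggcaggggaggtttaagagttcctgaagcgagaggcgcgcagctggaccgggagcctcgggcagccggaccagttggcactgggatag
The same windows were searched on both strands for 2 forms of the element that RA receptors are known to bind. The letters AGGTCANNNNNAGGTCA were in 0 of the 56 promoters of these genes and in 3 of all 32851, and so were the letters AGGTCANNAGGTCA. No match says only that these letters are not in this window. Hes5, Lfng and the other members are described below by their signal.

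The FGF family was the dimmest. In all 27 arrays 11 of its 22 genes lay below the array's 25th percentile, which was 4.92 to 5.18 log2, namely the ligands Fgf1, Fgf2, Fgf5, Fgf6, Fgf7, Fgf8, Fgf9 and Fgf17 and the intracellular factors Fgf12, Fgf13 and Fgf14. Fgf10, the ligand known from limb and lung buds, lay below it in 25 arrays. The 3 lowest control means were 3.17 for Fgf12, 3.33 for Fgf7 and 3.60 for Fgf2, and RMA gives no calls of presence, so such values are no measure of absence. The 3 highest were 9.32 for Fgfr2, a receptor for several ligands, 7.31 for Fgf4 and 7.17 for the feedback inhibitor Spry4. Fgf4 is a ligand known from early embryo and limb, and whether its probe set binds other transcripts was not tested.

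Among the 16 Notch genes, Hes2 alone lay below the 25th percentile in most arrays, in 22 of 27. The 3 highest control means were 8.68 for the receptor Notch1, 8.47 for the repressor Hes1 and 7.89 for Rfng, a fringe enzyme that modifies Notch by adding sugar. The 3 lowest were 4.85 for Hes2, 5.53 for Notch4, a receptor best known from endothelium, and 5.67 for the ligand Jag2. The ligand Dll1 had a control mean of 7.04, and the DNA-binding partner Rbpj one of 7.06.

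Among the 17 Eph-ephrin genes, Efna5, Epha3 and Epha5 lay below the 25th percentile in all 27 arrays and Epha7 in 26. Their control means of 3.29 for the ligand Efna5, 4.34 for the receptor Epha5 and 4.46 for Epha3 were the 3 lowest of the family. The 3 highest were 9.27 for Efnb2, 8.26 for Efna3 and 8.23 for Efnb3, all of them ligands. Ephrin-A ligands are tethered to the membrane by a lipid anchor, while ephrin-B ligands cross it and can signal inward.

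**Figure D1:**
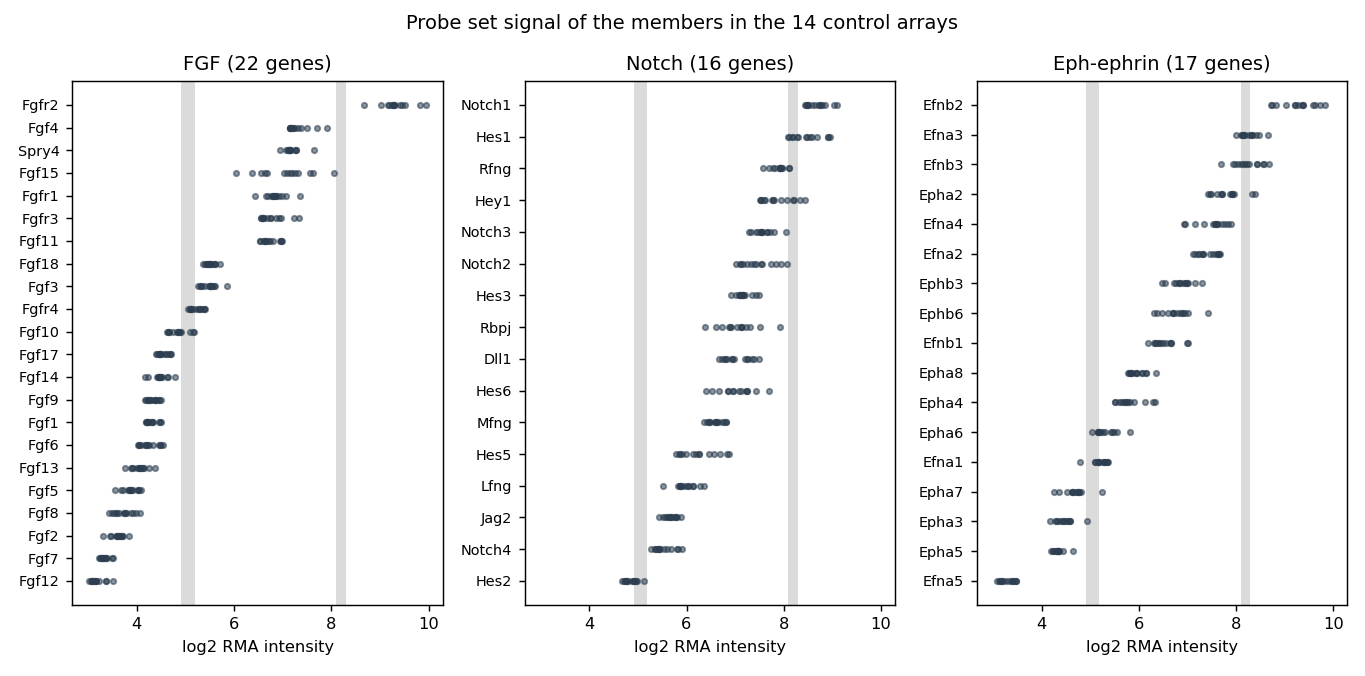
Signal of each of the 55 genes in the 14 control arrays, as log2 RMA intensity on the x axis, with 1 point per array and 1 panel per family. Grey bands span the 25th and 75th percentiles of the arrays. Most FGF ligands lie left of the lower band, while most Notch and Eph-ephrin genes lie between the bands. The order of the genes is one of probe set signal and not of transcript amount.

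The first question was whether RA changed these genes at each time. None of the 55 passed at 6, 12, 24 or 48 h. Few calls were made anywhere: of all probe sets 0.0242% passed at 6 h, 0.0242% again at 12 h, then 0.153% at 24 h and lastly 0.274% at 48 h. The unadjusted p was below 0.05 for 2 genes after 6 h, 4 genes after 12 h, 1 gene after 24 h and 2 genes after 48 h. Over all probe sets that share was 4.29% for 6 h, 2.49% for 12 h, 1.84% for 24 h and 3.42% for 48 h. The log2 differences, RA minus control, ran between -0.51 and 0.19 at 6 h and between -0.64 and 0.32 at 12 h. Later they ran between -0.28 and 0.29 (24 h) and between -0.50 and 0.19 (48 h).

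The intervals show what these arrays could have missed. The 95% interval of the difference stayed within 1 log2 on both sides for all 55 genes at 6, 24 and 48 h and for 53 at 12 h, with Hes5 and Fgf15 as the exceptions. It stayed within 0.5 log2 for 43 genes after 6 h, 40 genes after 12 h, 46 genes after 24 h and 43 genes after 48 h. The median difference of the 55 genes was -0.04 at 48 h, against 0.00 over all probe sets, and it was 0.00 or -0.01 at the earlier times, against 0.03 at most over all probe sets.

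Averaged over the 4 times, again 0 of the 55 passed, while 0.564% of all probe sets did, and 7 genes had an unadjusted p below 0.05, against 5.63% of all probe sets. They were Dll1, Notch1 and Hes5 of the Notch family, Efnb2, Epha4 and Epha2 of the Eph-ephrin family, and Fgf3. The test of whether the RA difference itself changed between the times passed for 0 of the 55 genes and for 0.0161% of all probe sets, and 0 of the 55 had an unadjusted p below 0.05.

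**Figure D2:**
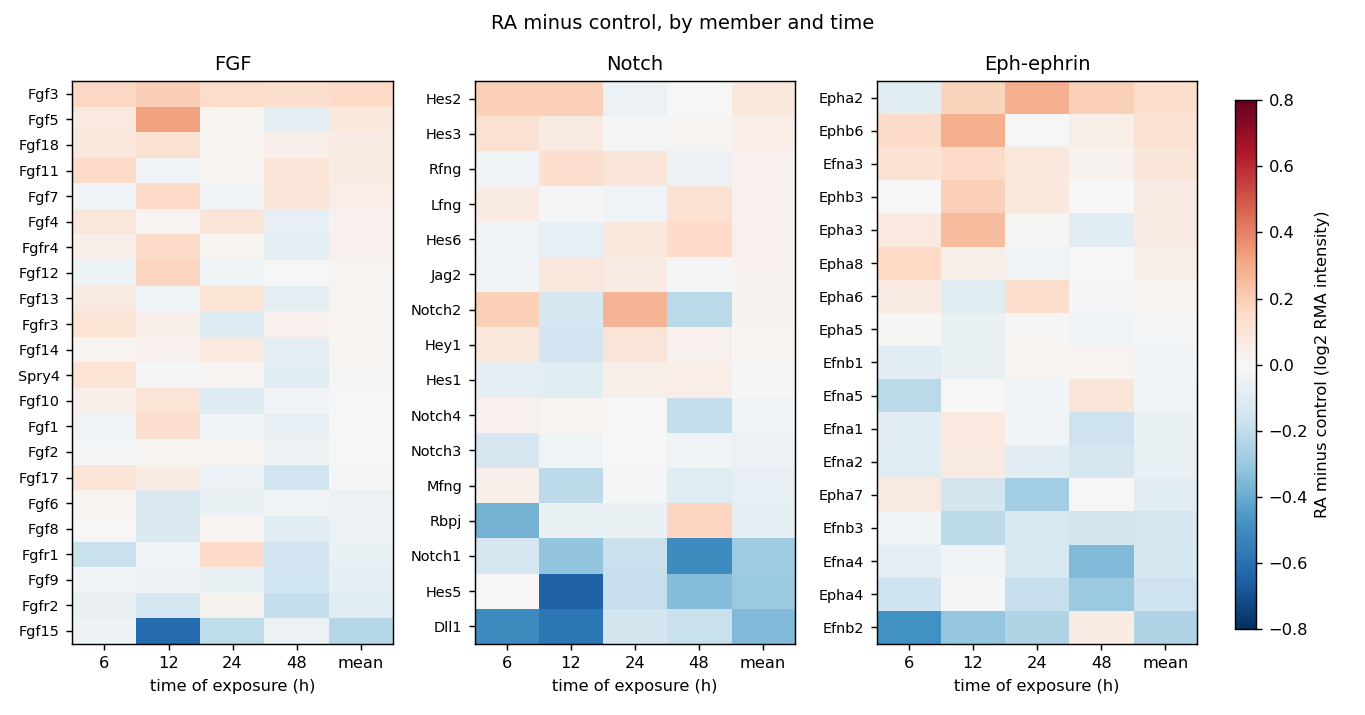
RA minus control in log2 RMA intensity for every gene (rows, ordered by the averaged difference) at 6, 12, 24 and 48 h and averaged over the 4 times (columns), with 1 panel per family. Red is higher with RA and blue lower. The darkest cells are blue, Hes5, Fgf15 and Dll1 at 12 h and Dll1, Notch1 and Efnb2 at 6 or 48 h, and none of the differences passed.

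Dll1, the Notch ligand of neuronal precursors and somites, gave the largest difference at 6 h. At 6 h its log2 signal was 6.99, 6.60 and 6.81 in RA arrays and 7.20, 7.25 and 7.48 in controls. At 12 h it was 6.58, 6.43 and 6.65 with RA and 7.35, 6.78 and 7.26 in controls. At both times every RA array lay below every control array. At 24 h the signal was 6.93, 6.23, 6.86 and 6.80 with RA and 6.84, 6.93, 6.67 and 6.98 in controls, and at 48 h it was 6.63, 6.60 and 7.11 with RA and 6.73, 6.80, 6.93 and 7.38 in controls. There the groups overlapped. The difference was -0.51 ± 0.19 (SE) at 6 h and -0.58 ± 0.19 at 12 h, neither past the threshold (adjusted p = 1.00 at both). It was -0.15 ± 0.16 at 24 h and -0.18 ± 0.18 at 48 h.

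Notch1, the main Notch receptor of neural progenitors, gave the largest difference at 48 h. Its log2 signal was 8.37, 7.65 and 8.33 in 48 h RA arrays, against 8.73, 8.49, 8.46 and 8.79 in controls. Every RA array lay below every control array, with 48 h RA 2 the lowest. The difference was -0.50 ± 0.17 (SE, adjusted p = 0.593), and -0.27 without 48 h RA 2. At 6 h the signal was 8.63, 8.49 and 8.26 with RA and 8.77, 8.58 and 8.43 in controls, and at 12 h it was 8.02, 8.63 and 8.11 with RA and 8.72, 8.48 and 8.50 in controls. At 24 h it was 8.56, 8.70, 8.82 and 8.84 with RA and 9.10, 9.02, 8.65 and 8.86 in controls. The groups overlapped at these 3 times.

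Hes5, a repressor that Notch induces in neural progenitors and whose promoter is printed above, gave the largest difference of all 55 genes at any time. At 12 h its log2 signal was 5.53, 5.79 and 6.01 in RA arrays, against 6.57, 5.86 and 6.83 in controls. Control 2 lay among the RA arrays, so the groups overlapped. The difference was -0.64 ± 0.22 (SE, adjusted p = 1.00, unadjusted p = 0.00858). At 6 h the signal was 6.88, 6.37 and 6.58 with RA and 6.70, 6.26 and 6.87 in controls, a difference of 0.00 ± 0.22. At 24 h it was 5.76, 6.21, 5.65 and 6.31 with RA and 6.13, 6.46, 5.85 and 6.25 in controls. At 48 h it was 5.81, 5.45 and 5.60 with RA and 6.19, 5.91, 5.78 and 5.99 in controls, a difference of -0.35 ± 0.21. Here 1 RA array lay above the lowest control.

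These 3 genes were the ones that depended on how the arrays were matched. Averaged over the times, the difference was -0.35 ± 0.09 (SE) for Dll1, -0.28 ± 0.08 for Notch1 and -0.30 ± 0.11 for Hes5, with adjusted p = 0.0808 for Dll1, 0.216 for Notch1 and 0.460 for Hes5. The scanner records join an RA array and a control array of the same time, scanned on the same day under consecutive numbers, in 13 pairs. With these pairs as a block, all 3 genes passed in limma, Dll1 at -0.37 ± 0.07 (adjusted p = 0.00496), Hes5 at -0.30 ± 0.07 (adjusted p = 0.0242) and Notch1 at -0.29 ± 0.07 (adjusted p = 0.0304). They were 3 of 55 genes, while 2.94% of all probe sets passed in that fit. With the scan day as a block Dll1 and Notch1 passed (adjusted p = 0.00682 for Dll1 and 0.0274 for Notch1) and Hes5 did not (adjusted p = 0.174), and 2.30% of all probe sets passed. With the replicate numbers of the titles as a replicate block 0 of the 55 passed in limma, against 1.30% of all probe sets. In that fit 8 of the 55 had an unadjusted p below 0.05, and such a share over all probe sets was not taken. Adjusted p was then 0.0640 for Dll1, 0.0945 for Hes5 and 0.182 for Notch1. The replicate numbers differ from the record pairs only at 48 h, where they join control 2 with RA 2 and control 3 with RA 3. Those arrays were scanned on different days, and their deviations from the group means correlated by -0.308 and 0.030. In the record pairs control 3 with RA 2 gave 0.717 and control 4 with RA 3 gave 0.730.

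Within the 13 pairs, RA was lower in 11 for Dll1, with a median difference of -0.33, in 11 for Notch1, with a median of -0.33, and in 10 for Hes5, with a median of -0.30. For Dll1 both exceptions were at 24 h, and the 9 pairs of 6, 12 and 48 h all had RA lower. These pairs formed the block above, and the genes were named for their differences in the same arrays. The counts are therefore no separate test, and such counts over all probe sets were not taken. The summed intensity of 7 neural tube markers was likewise lower with RA in 12 of the 13 pairs, by a median of -0.16 log2, and that of 9 neuron markers in 13 of 13, by a median of -0.22 log2. The neural tube sum was 2981 to 3587 in 12 h RA arrays, against 4013 to 4385 in controls, and 2965 to 3764 in 24 h RA arrays, against 3882 to 4335 in controls. It overlapped at 6 h, at 3622 to 4158 with RA and 3686 to 4402 in controls, and at 48 h, at 2406 to 3431 with RA and 2771 to 3626 in controls. The neuron sum was 2797 to 3067 with RA and 3072 to 3372 in controls at 6 h, and 2230 to 2819 with RA and 2851 to 2991 in controls at 12 h. At 24 h it was 2206 to 2454 with RA and 2502 to 2915 in controls, and at 48 h it was 1533 to 2018 with RA and 1785 to 2853 in controls. Averaged over the times, 1 of the 7 neural tube markers passed, Fabp7, which fell by 0.76 log2 (limma, adjusted p = 0.00154), and 0 of the 9 neuron markers did. Of these 9 neuron markers 3 had an unadjusted p below 0.05, against 5.63% of all probe sets. The median averaged difference of the 7 neural tube markers was -0.04, and at 24 h it was 0.04. For the 9 neuron markers the median averaged difference was -0.07. A sum of intensities rests mostly on its brightest genes. Among the neuron markers these were Tubb3, Gap43 and Stmn2, at 10.7, 9.83 and 8.81 log2 in 6 h controls. In every group 1 neural tube marker and 4 neuron markers lay below the 25th percentile.

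The sums of other marker lists were read in the same pairs. That of 8 somite and muscle markers was higher with RA in 11 of the 13 pairs, by a median of 0.10 log2. It was 780.1 to 836 with RA and 717 to 802 in controls at 6 h, and 1001 to 1040.4 with RA and 835 to 1012 in controls at 12 h. At 24 h it was 898 to 1011 with RA and 833 to 906 in controls, and at 48 h it was 932 to 1058 with RA and 879 to 1041 in controls. Averaged over the times 2 of these 8 passed in limma, in opposite directions. Meox1, a somite factor, rose by 0.82 log2 (adjusted p = 5.30e-06) and Meox2, its relative, fell by 1.03 log2 (adjusted p = 0.0205). The neural crest sum was lower with RA in 10 of 13 pairs and the surface ectoderm sum in 7 of 13. The part of all these markers in the differences of Dll1, Notch1 and Hes5 was not tested.

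A second probe set of each of these genes did not show the difference. Averaged over the times it gave 0.01 for Notch1, 0.06 for Hes5 and -0.02 for Dll1. These probe sets were dimmer, with mean log2 signals of 5.84 for Notch1, 5.61 for Hes5 and 3.28 for Dll1.

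**Figure D3:**
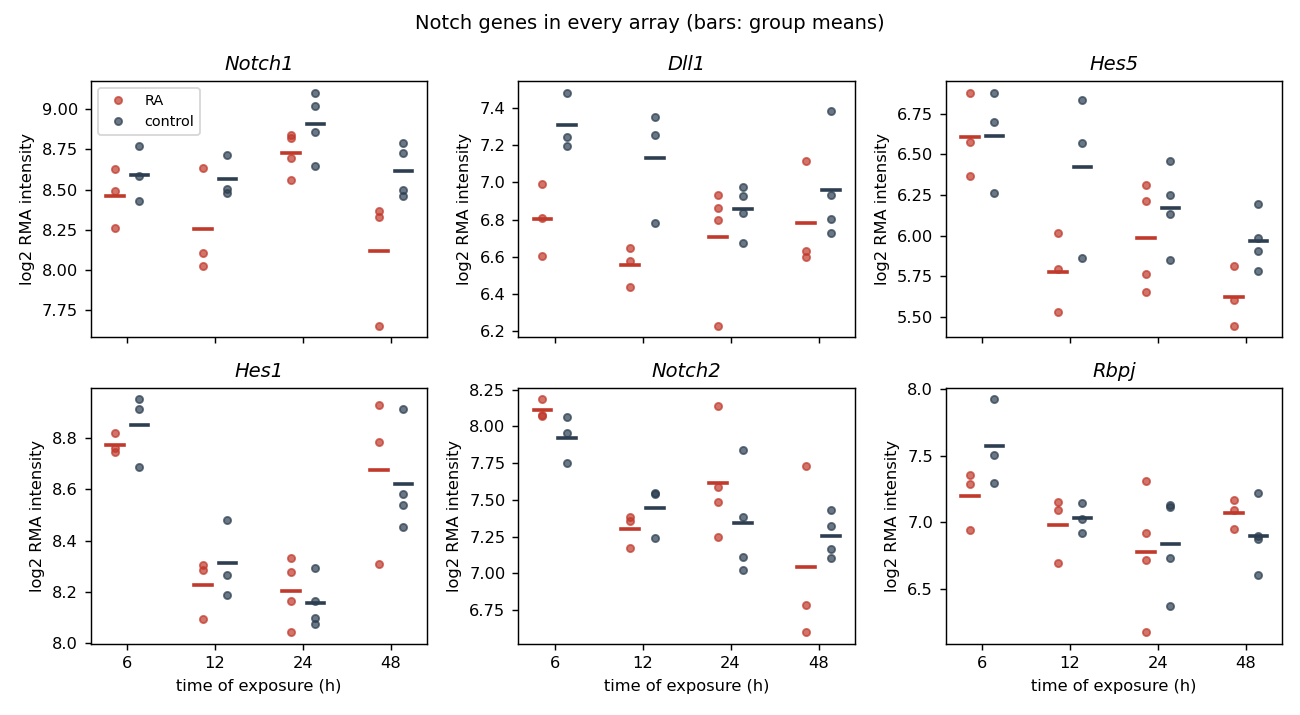
Log2 RMA intensity of Notch1, Dll1, Hes5, Hes1, Notch2 and Rbpj in every array (y axis, with a scale of its own in each panel) against the time of exposure (x axis), RA in red left of control in grey-blue. Bars are group means. Dll1 at 6 and 12 h and Notch1 at 48 h, with RA lower, and Notch2 at 6 h, with RA higher, show no overlap between RA and control arrays.

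**Figure D4:**
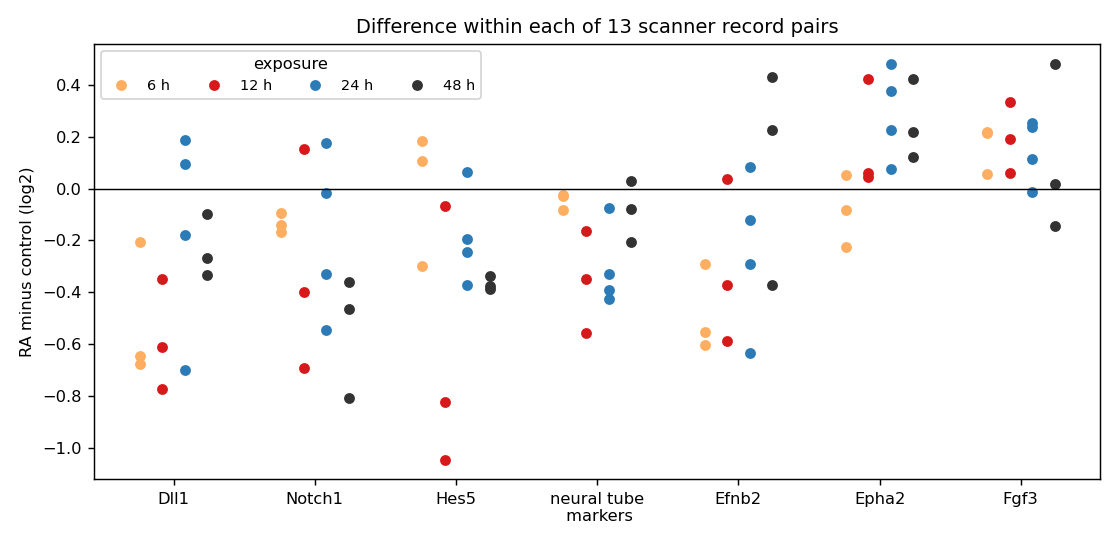
RA minus control in log2 within each of the 13 scanner record pairs (points, coloured by time of exposure) for Dll1, Notch1, Hes5, the summed neural tube markers, Efnb2, Epha2 and Fgf3. Dll1 and Notch1 lie below 0 in 11 of 13 pairs, Hes5 in 10 and the marker sum in 12, while Epha2 and Fgf3 lie above 0 in 11.

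Other Notch genes gave smaller or unsteady differences. Rbpj was the third by size at 6 h, with 6.94, 7.36 and 7.29 in RA arrays and 7.30, 7.92 and 7.50 in controls, a difference of -0.38 ± 0.23 (SE). Notch2 was the third by size at 24 h, with 7.59, 8.14, 7.24 and 7.49 in RA arrays and 7.38, 7.84, 7.03 and 7.11 in controls, a difference of 0.27 ± 0.20. The groups overlapped for both genes. Lfng, the other printed promoter, encodes a fringe enzyme and averaged a difference of 0.04 ± 0.07 over the times, with a 95% interval between -0.11 and 0.18. Hes1, the broadly used Notch target, averaged -0.02 ± 0.07, with an interval between -0.15 and 0.12.

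Of the FGF genes, Fgf15 and Fgf5 stood out at 12 h. Fgf15, an FGF ligand of the embryonic neural tube, had log2 signals of 6.99, 6.69 and 7.22 in RA arrays, against 8.06, 7.14 and 7.55 in controls. One RA array lay above the lowest control, and the difference was -0.62 ± 0.29 (SE, adjusted p = 1.00). Fgf5 had 4.15, 3.79 and 4.13 in RA arrays, against 3.68, 3.55 and 3.88 in controls, a difference of 0.32 ± 0.12 in a probe set below the 25th percentile of every array. Fgf3, a ligand of the hindbrain and ear region, differed by 0.16 ± 0.06 averaged over the times (adjusted p = 0.476), and RA was higher in 11 of 13 pairs. The receptors and Spry4 gave averaged differences near 0, of -0.09 ± 0.11 for Fgfr2 and 0.01 ± 0.06 for Spry4, with a 95% interval for Spry4 between -0.11 and 0.13.

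Of the Eph-ephrin genes, Efnb2, an ephrin-B ligand of migrating crest and of arteries, had the largest difference at 6 h. Its log2 signal was 9.09, 9.03 and 8.76 in RA arrays and 9.38, 9.59 and 9.37 in controls. The groups did not overlap, and the difference was -0.48 ± 0.19 (SE, adjusted p = 1.00). At 12 h it was 8.45, 8.76 and 8.16 with RA and 8.82, 8.72 and 8.75 in controls, and at 24 h it was 8.92, 8.73, 9.10 and 9.09 with RA and 9.21, 9.36, 9.02 and 9.21 in controls. At 48 h it was 9.25, 10.25 and 9.49 with RA and 9.62, 9.72, 9.82 and 9.26 in controls, where 48 h RA 2 was the highest of all. The averaged difference was -0.24 ± 0.09 (adjusted p = 0.517). Without 48 h RA 2 it was -0.32, and Efnb2 then passed (adjusted p = 0.0445).

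Epha2, an EphA receptor of epithelia, had the largest difference at 24 h, with 8.14, 8.09, 8.40 and 7.998 in RA arrays and 7.92, 7.71, 7.92 and 7.92 in controls. Every RA array lay above every control, and the difference was 0.29 ± 0.12 (SE, adjusted p = 1.00). Epha7 had 4.44, 4.17, 4.46 and 4.62 in 24 h RA arrays and 4.81, 4.70, 4.65 and 4.64 in controls, a difference of -0.28 ± 0.15 at low signal. Efna4 was second by size at 48 h, with 7.58, 6.80 and 7.05 in RA arrays and 7.77, 7.71, 6.94 and 7.56 in controls, a difference of -0.35 ± 0.19 with overlapping groups. Epha4, a receptor that both ephrin classes bind, differed by -0.17 ± 0.07 averaged over the times (adjusted p = 0.617), with RA lower in 11 of 13 pairs. A second probe set of Epha4, with a mean log2 signal of 5.43, went the other way, by 0.08 ± 0.07 averaged over the times.

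Counts of genes with no overlap between groups were small and are read against all probe sets. At 6 h every RA array was higher for 4 genes, Hes2, Hes3, Notch2 and Spry4 (7.28% of all probe sets), and lower for 4, Dll1, Efna2, Efna5 and Efnb2 (8.29%). At 12 h RA was higher for 5, Epha2, Ephb3, Fgf3, Fgfr4 and Hes2 (4.49%), and lower for Dll1 (4.50%). At 24 h it was higher for Epha2 (1.39%) and lower for Epha7 (0.845%). At 48 h it was higher for 0 (1.06%) and lower for 3, Fgf9, Fgf17 and Notch1 (0.765%).

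The second question was how the genes differed between the 4 times. These are times of exposure and not of culture, since the 6 h explants were grown overnight before RA was added. The part of the culture before exposure in these differences was not tested. In the controls 6 of the 55 genes, or 10.9%, differed between the 4 times by limma's F-test, against 12.9% of all probe sets. They were Hes1 (adjusted p = 0.00244), Epha2 (adjusted p = 0.00543), Efnb2 (adjusted p = 0.0121), Efna2 (adjusted p = 0.0152), Epha4 (adjusted p = 0.0299) and Ephb3 (adjusted p = 0.0358). By family this was 5 of 17 Eph-ephrin, 1 of 16 Notch and 0 of 22 FGF genes, and 11 of those FGF genes never left the low signal range. This tally depended on the setting. Hes1, Epha2 and Efnb2 passed under each of the 8 alternatives that kept all arrays or only the groups compared. With the scan day as a random block 4 genes passed, against 6.96% of all probe sets, since Efna2 (adjusted p = 0.101), Epha4 (adjusted p = 0.101) and Ephb3 (adjusted p = 0.168) did not and Fgf15 did (adjusted p = 0.0194). With 48 h control 3 moved to RA, Epha4 (adjusted p = 0.165) and Ephb3 (adjusted p = 0.0863) did not pass and Rbpj did (adjusted p = 0.0452). Cyclic loess ended the same 2 calls and median centring that of Ephb3, and Fgf15 passed in both (adjusted p = 0.0403 with cyclic loess and 0.0493 with median centring).

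Hes1 was high at 6 and 48 h and low between. Its log2 signal in controls was 8.95, 8.69 and 8.91 at 6 h and 8.27, 8.19 and 8.48 at 12 h. It was 8.08, 8.29, 8.16 and 8.10 in 24 h controls and 8.58, 8.54, 8.45 and 8.91 in 48 h controls. The RA arrays entered this F-test only through the residual variance. Hes1 had 8.82, 8.74 and 8.76 in 6 h RA arrays and 8.28, 8.10 and 8.30 in 12 h RA arrays. It had 8.33, 8.28, 8.16 and 8.04 in 24 h RA arrays and 8.93, 8.31 and 8.78 in 48 h RA arrays. In both treatments the 6 h arrays lay above all 12 and 24 h arrays.

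Efnb2 was lowest at 12 h, with control values of 9.38, 9.59 and 9.37 at 6 h and 8.82, 8.72 and 8.75 at 12 h, and every control array of 12 h lay below every other control array. Efna2, an ephrin-A ligand, had control values of 7.63, 7.63 and 7.65 at 6 h and 7.22, 7.16 and 7.11 at 12 h, followed by 7.46, 7.53, 7.30 and 7.31 at 24 h and 7.33, 7.59, 7.67 and 7.23 at 48 h. Its 12 h arrays, too, lay below all other control arrays.

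Between 48 h and 6 h in the controls, 5 of the 55 genes passed, against 9.52% of all probe sets. The higher ones were 4, against 4.23% of all probe sets, and the lower was 1, against 5.29%. Epha4 was 5.90, 6.30, 6.32 and 5.81 at 48 h and 5.58, 5.51 and 5.67 at 6 h, and it rose by 0.49 ± 0.13 (SE, limma, adjusted p = 0.0186). Epha2 was 8.39, 8.32, 7.88 and 7.95 at 48 h and 7.69, 7.72 and 7.61 at 6 h, and it rose by 0.46 ± 0.13 (adjusted p = 0.0273). Ephb3, an EphB receptor, was 7.01, 7.15, 7.29 and 6.82 at 48 h and 6.53, 6.48 and 6.84 at 6 h, and it rose by 0.45 ± 0.11 (adjusted p = 0.0115). The groups overlapped for Ephb3 by 1 array and did not overlap for Epha4 or Epha2.

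Fgf11, an intracellular factor related to FGFs, was 6.96, 6.74, 6.97 and 6.98 at 48 h and 6.62, 6.52 and 6.53 at 6 h, and it rose by 0.35 ± 0.10 (SE, limma, adjusted p = 0.0248). Rbpj was 6.90, 6.61, 7.22 and 6.88 at 48 h and 7.30, 7.92 and 7.50 at 6 h, and it fell by 0.68 ± 0.21 (adjusted p = 0.0483). Groups did not overlap for either gene. The call of Rbpj held in 9 of the 27 fits that each left out 1 array, with adjusted p between 0.0241 and 0.252. Without 6 h control 2 it fell by 0.50 and did not pass. The second probe sets gave 0.21 for Epha4 and 0.17 for Fgf11, neither past the threshold. The other 4 calls also rested on single arrays. Adjusted p reached 0.0984 for Epha2 when any 6 h control or 48 h control 1 or 2 was left out, and 0.0840 for Epha4 without 6 h control 1 or 2 or 48 h control 3. It reached 0.0800 for Ephb3 without 6 h control 1 or 2, and 0.0923 for Fgf11 without 6 h control 2 or 3 or 48 h control 1 or 4. Median centring of each array ended the call of Epha2 (adjusted p = 0.0640), and moving 48 h control 3 to RA (adjusted p = 0.103) or cyclic loess (adjusted p = 0.0515) ended that of Epha4.

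In the RA arrays 5 of the 55 genes passed between 48 h and 6 h, against 11.7% of all probe sets, 3 of them higher (5.51% of all probe sets) and 2 lower (6.23%). Epha2 was 8.51, 8.10 and 8.38 at 48 h and 7.74, 7.49 and 7.53 at 6 h, and it rose by 0.74 ± 0.14 (SE, limma, adjusted p = 0.00107). Ephb3 was 7.25, 7.04 and 6.93 at 48 h and 6.58, 6.54 and 6.72 at 6 h, and it rose by 0.46 ± 0.12 (adjusted p = 0.0122). Efnb2 rose by 0.70 ± 0.19 (adjusted p = 0.0177), and by 0.41 without 48 h RA 2, when it did not pass (adjusted p = 0.140). With 48 h control 3 moved to RA, Epha4 (adjusted p = 0.0205), Fgf11 (adjusted p = 0.0433) and Hey1 (adjusted p = 0.0433) passed as well. The call of Efnb2 was also lost without 6 h RA 3, and that of Ephb3 without 6 h RA 1 or 2 or 48 h RA 1 (adjusted p up to 0.0699). For Epha2, Ephb3 and Efnb2 every 48 h RA array lay above every 6 h RA array. Epha2 and Ephb3 passed in RA and in control arrays. The labels describe both as sides of the same embryos, the arrays share scan days, and the 2 tests share 1 residual variance, so they are not independent.

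Hes5 was 5.81, 5.45 and 5.60 in 48 h RA arrays and 6.88, 6.37 and 6.58 in 6 h RA arrays, and it fell by 0.99 ± 0.22 (SE, limma, adjusted p = 0.00459). Notch2 was 6.60, 7.73 and 6.79 at 48 h and 8.07, 8.18 and 8.08 at 6 h, and it fell by 1.07 ± 0.23 (adjusted p = 0.00341). The 48 h arrays lay below the 6 h arrays throughout for both genes. In the controls the same differences were -0.64 ± 0.21 for Hes5 (adjusted p = 0.0557) and -0.66 ± 0.22 for Notch2 (adjusted p = 0.0580). The second probe set of Notch2, with a mean log2 signal of 7.25, gave 0.13 between 48 and 6 h in RA arrays and that of Hes5 gave 0.11, so the 2 probe sets of each gene disagreed in direction.

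Markers of several cell types moved over the same interval, in which 11.7% of all probe sets passed in RA arrays and 9.52% in controls. Between 48 h and 6 h in RA arrays 4 of 7 neural tube markers fell and 1 rose, with Sox2, a progenitor factor, falling by 3.15 log2 (limma, adjusted p = 2.44e-05) and Pax6 by 1.22 log2 (adjusted p = 0.000298). In controls 2 of the 7 fell, Sox2 by 1.98 log2 (adjusted p = 0.00172) and Pax6 by 1.11 log2 (adjusted p = 0.000544). Of the 9 neuron markers 2 rose and 2 fell in RA arrays, and 1 rose and 2 fell in controls. Of 10 crest markers 2 fell in each treatment, Pax3 by 0.87 log2 with RA (adjusted p = 0.00450) and by 0.86 log2 in controls (adjusted p = 0.00408), and Tfap2a by 0.50 log2 with RA (adjusted p = 0.0351) and by 0.65 log2 in controls (adjusted p = 0.00532). Of 8 somite and muscle markers Meox1 and Myog rose in RA arrays, by 1.15 log2 (adjusted p = 0.000251) and 0.51 log2 (adjusted p = 0.000447), and Myf5 fell by 1.73 log2 (adjusted p = 0.00965), while in controls Myog alone passed and rose by 0.65 log2 (adjusted p = 2.72e-05). Of 6 surface ectoderm markers Epcam, an epithelial adhesion protein, fell by 1.29 log2 with RA (adjusted p = 5.00e-05) and by 1.11 log2 in controls (adjusted p = 0.000158), and the median of the 6 was -0.14 with RA and -0.37 in controls. Their part in the changes of Hes5, Notch2 and the Eph receptors was not tested.

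The 6 h arrays and the 48 h arrays each had scan days that no other time shared, so time and scan day cannot be told apart for these differences. With the scan day as a random block 0 of the 55 genes passed between 48 h and 6 h in controls, against 4.59% of all probe sets. In that fit 11 of the 55 had an unadjusted p below 0.05 in limma, and such a share over all probe sets was not taken. In RA arrays 4 passed, against 7.69% of all probe sets. The days of 12 h and 24 h overlapped, and there the scan day could be held fixed. Between 24 h and 12 h in controls 0 of the 55 genes passed, against 0.0564% of all probe sets. For 7 of the 55 the unadjusted p was below 0.05, against 6.57% of all probe sets. With the scan day as a block 2 passed, against 1.57% of all probe sets, Epha2 at 0.45 ± 0.11 (SE, adjusted p = 0.0400) and Fgf15 at -0.79 ± 0.17 (adjusted p = 0.0280).

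On the day that held 2 control arrays of each time, Epha2 averaged 7.92 at 24 h and 7.45 at 12 h, a difference of 0.47, and Fgf15 averaged 6.78 at 24 h and 7.60 at 12 h, a difference of -0.82. On the day that held 1 of each, the differences were 0.46 for Epha2 and -0.87 for Fgf15. The remaining 24 h control, 24 h control 2, was scanned on another day, and it was the lowest of its group for Epha2, at 7.71, and the highest for Fgf15, at 7.63.

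**Figure D5:**
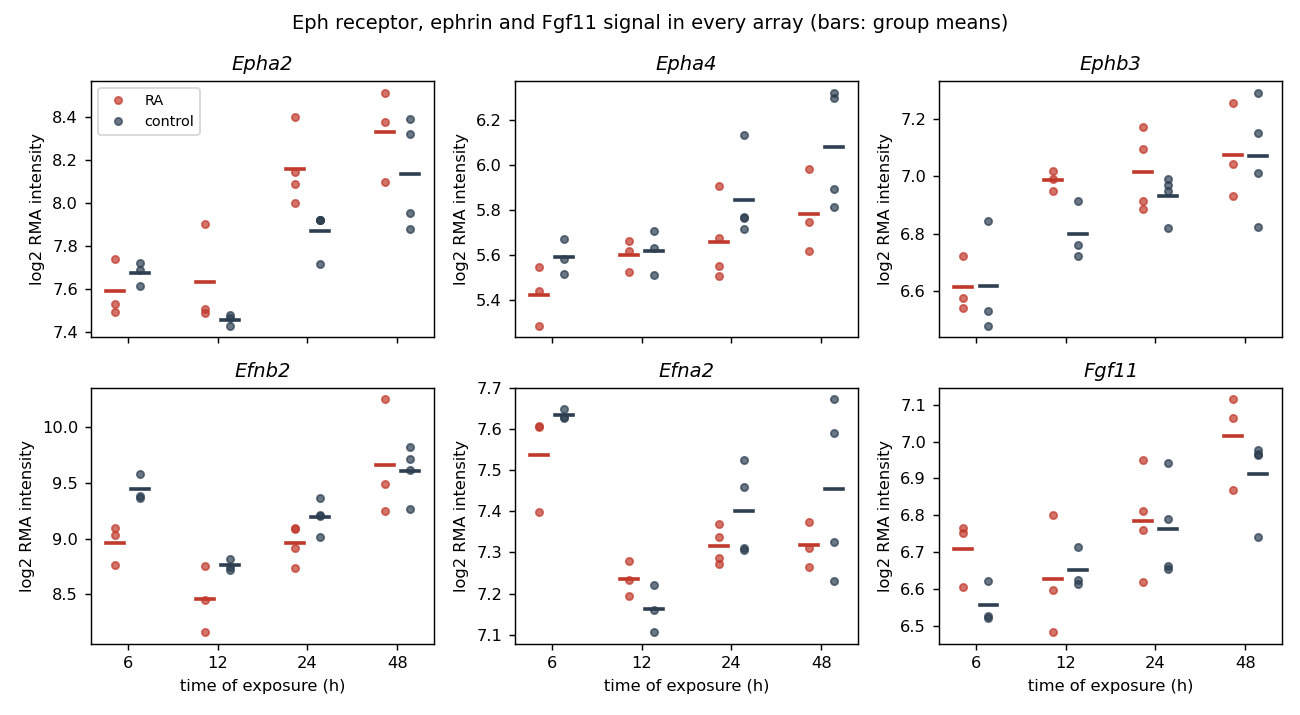
Log2 RMA intensity of Epha2, Epha4, Ephb3, Efnb2, Efna2 and Fgf11 in every array (y axis, with a scale of its own in each panel) against the time of exposure (x axis), RA in red left of control in grey-blue. Bars are group means. Epha2 at 48 h lies above 6 h in RA and control arrays, while Efnb2 and Efna2 are lowest at 12 h in both.

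Other genes were read from lists drawn up for the 3 pathways, which hold more than core components. On the array were 10 of 17 genes for FGF signal relay and 9 of 18 for FGF feedback and targets. For Notch there were 17 of 28 and for Eph signalling 18 of 21. In limma 0 of the listed genes passed for RA against control at any time or averaged. Of all probe sets at most 0.274% passed at a single time, and 0.564% passed averaged. Averaged, the unadjusted p was below 0.05 for 1 FGF relay gene, 2 FGF feedback and target genes, 2 Notch genes and 0 Eph genes. Of all probe sets 5.63% had such a p. At 24 h alone it was below 0.05 for 3 of the 9 FGF feedback and target genes, against 1.84% of all probe sets. The median difference of those 9 genes at 24 h was 0.01 log2. Between 48 h and 6 h in controls 9.52% of all probe sets passed, and 0 of the 10 FGF relay genes did. Of the 9 feedback and target genes Egr1, an early response gene of MAP kinase, rose by 1.14 log2 (limma, adjusted p = 0.00676). Of the 17 genes on the Notch list 2 fell. Psenen, a subunit of the protease that frees the Notch receptor, fell by 0.40 log2 (limma, adjusted p = 0.0359). Id2, a helix-loop-helix inhibitor and no core Notch component, fell by 0.60 log2 (adjusted p = 0.00735).

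Of the 18 Eph signalling genes 2 rose and 1 fell between 48 h and 6 h in controls, against 9.52% of all probe sets in either direction. Fyn, a Src family kinase downstream of ephrins, rose by 0.58 log2 (limma, adjusted p = 0.0155), Grb10, an adaptor that binds Eph receptors, rose by 0.38 log2 (adjusted p = 0.0385), and the small GTPase Cdc42 fell by 1.00 log2 (adjusted p = 0.00408). In RA arrays 11.7% of all probe sets passed between these times. There Egr1 rose by 0.86 log2 (limma, adjusted p = 0.0483) and Psenen fell by 0.64 log2 (adjusted p = 0.00161). Fyn rose by 1.01 log2 (adjusted p = 0.000174) and Cdc42 fell by 0.88 log2 (adjusted p = 0.0125). The adaptor Nck2 rose by 0.37 log2 (adjusted p = 0.0410), and Tle1, a corepressor used by Hes proteins, rose by 0.64 log2 (adjusted p = 0.0109).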

How the data were processed

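Total RNA was hybridised to 27 MG_U74Av2 arrays. Per the labels, the authors normalised with RMA Express 0.2 and used GeneSpring afterwards, and the deposited values are linear intensities between 3.92 and 17003, with array medians between 91.97 and 100.4. Their log2 was taken once here, although a log scale had been planned for. The deposited scanner records, used as other text, gave 9 scan days and 13 record pairs. Of 12488 probe sets 66 controls were left out, and 12422 were tested, 10833 of them naming 1 gene, 396 several and 1193 none. Symbols are those of the platform annotation, and 0 changed through the RefSeq gene table. Limma 3.58.1 (R 4.3.3) fitted 8 groups to all arrays with 19 residual degrees of freedom and no block, and was tested on simulated data. The number of arrays limits the precision, and no 2 arrays held identical values.

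The named genes are those past the threshold, the 3 largest RA differences at each time, and the 3 highest and 3 lowest of each family. Those named for an unadjusted p, for non-overlap or by a blocked or other alternative fit, the markers, and Lfng, Hes1, Hes5 between 48 and 6 h in controls, Spry4 and Fgfr2 beside RA, were chosen after their values were seen. Members and lists were chosen with earlier results of these data known. Per the labels each embryo gave both sides, but not which arrays share embryos. Deviations from the group means of equally numbered arrays correlated by 0.447 to 0.470 (6 h) and -0.052 to 0.257 (12 h). At 24 h they correlated by 0.229 to 0.622, and at 48 h by -0.308 to 0.670. The replicate block joined equal numbers at every time, and the record pairs differed from them only at 48 h. Record pairs had a median of 0.451 and the other 33 combinations one of -0.203. Alternatives changed the normalisation, log offset, dim filter, moderation, blocks, samples, 1 label, the probe set and each array left out.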

Additional observations from a re-analysis of the deposited data

Results flagged for a closer look

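Of 165 groups of 4 arrays (gene by group), 12 held an array far from the other 3 by Dixon's test at the 95% level, where chance gives about 1 in 20. The 24 h control 2 array gave 5 of them. Its log2 signal was 7.71 for Epha2, against 7.92 in all of the others, 6.13 for Epha4 (others 5.71 to 5.77), 4.465 for Fgf1 (others 4.19 to 4.22), 3.50 for Fgf7 (others 3.27 to 3.28) and 8.22 for Hey1, a Notch target (others 7.53 to 7.61). That array and 24 h RA 2 were the only 24 h arrays of their scan day, and 24 h RA 2 had 7.33 for Spry4, against 7.13 to 7.14 in the others.

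The other 2 at 24 h were 9.52 for Fgfr2 in control 3 (others 9.26 to 9.29) and 7.66 for the receptor Notch3 in control 4 (others 7.53 to 7.55). At 48 h Fgf11 was 6.74 in control 2 (others 6.96 to 6.98), Fgf12 was 3.50 in control 1 (others 3.06 to 3.13), Fgf14 was 4.79 in control 3 (others 4.44 to 4.49) and Fgf18, a ligand, was 5.35 in control 4 (others 5.58 to 5.61). The causes were not tested.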

How the results depend on the processing

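At each single time 0 of the 55 genes passed for RA against control under all 11 alternatives and all 27 fits that left out 1 array. The average over times gave 3 genes with the record pair block, 2 with the scan day block, 2 with the scan day as a random block (2.17% of all probe sets) and 0 with the replicate block, against 0 in the reported fit, and 0 to 1 with an array left out. Dll1 passed without 12 h control 2 or 48 h RA 3, and Efnb2 without 48 h RA 2. The F-test in controls gave 3 with only the groups compared (9.68% of all probe sets), against 6 (12.9% of all probe sets), and 4 to 8 with an array left out. For 48 h against 6 h controls gave 0 with the random block and 1 with only the groups compared, against 5, and 1 to 7 with an array left out, namely 2 without 6 h control 1, 1 without 6 h control 2, 2 without 6 h control 3 and 2 without 48 h control 1. RA arrays gave 8 with 48 h control 3 moved to RA and 2 with only the groups compared, against 5, and 4 to 6 with an array left out. Except for the random block, the shares of all probe sets in these 48 h against 6 h alternatives are not given here. The counts therefore do not single out these genes. Between 24 h and 12 h, controls gave 2 with the scan day block and 1 with the random block, against 0, and 0 with any array left out. The interaction gave 0 throughout. Direction was compared for the differences that passed and for the 3 largest RA differences at each time and averaged. Among these it turned only with a second probe set. That was so for Hes5 (0.11 between 48 and 6 h with RA, 0.11 for RA at 12 h, 0.063 averaged), Notch2 (0.13 between 48 and 6 h with RA, -0.059 for RA at 24 h) and Notch1 (0.0084 averaged). Outside this set a second probe set also turned Epha4 averaged (0.080). It likewise turned Hes5 (0.27) and Notch2 (0.19) between 48 and 6 h in controls. No cause was tested, except that fits of only the groups compared hold fewer arrays.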
